A study of Mus musculus with 26 samples.

Results

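Mouse embryonic stem cells (ESCs) that lacked ERR beta and made a TFIIH-binding deficient mutant of it were compared with ESCs that lacked it and made a DNA-binding deficient mutant. The libraries were chosen by their titles: 8 of the 26 RNA-seq libraries of the series, from 4 of its 14 clones. KO_ERRb_DBDm6, the TFIIH-binding mutant, was represented by clones 10-24 and 10-26, and KO_ERRb_DBDm3, the DNA-binding mutant, by clones 9-6 and 9-8. Each clone gave 2 libraries, and their counts were added, so that n = 2 clones per group throughout. All 4 lines were Esrrb knockout ESCs with a doxycycline-inducible construct. For RNA, 1600 cells were seeded and given doxycycline at 2 µg/ml for 3 days in N2B27 medium containing PD, which inhibits MEK, and CH, which inhibits GSK3. The growth protocol also lists LIF, which the design text does not name. Each line descends from 1 clone, and the residues changed in either mutant are not given in the sources used here. The p-values below rest on differences among clones, so they carry whatever set single clones apart.

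ERR beta is an orphan nuclear receptor that binds DNA as a monomer at an extended copy of the nuclear receptor core motif and belongs to the transcription factor network of naive ESCs. TFIIH works at promoters, where it unwinds DNA and phosphorylates the tail of RNA polymerase II. The comparison therefore sets a receptor impaired in contact with that factor against one impaired in contact with DNA.

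The 8 libraries held 21891602 to 28300776 counts each, and the summed clones 44467194 to 53593331. The ribosomal transcript Rn45s took 1.80% to 3.22% of a library. Markers of ESCs were high in every clone: 8 genes, among them Pou5f1, Sox2 and Nanog, summed to 3558 and 3773 CPM (reads of a gene scaled to equal library size) in the DBDm6 clones, against 3457 and 3591 CPM in the DBDm3 clones. Markers of other cell types summed to far less, with at most 5.51 CPM for the 4 fibroblast feeder markers and 2.46 CPM for the 6 primitive endoderm markers in any of the 4 clones. Neuroectoderm markers summed to 29.9 and 34.9 CPM in DBDm6, against 25.5 and 19.8 CPM in DBDm3, higher in both DBDm6 clones, with most of it from Nes. Mesoderm markers summed to 19.3 and 13.1 CPM in DBDm6, against 28.3 and 6.53 CPM in DBDm3, and most of this was T. Their part in the results below was not tested. In bulk RNA, fewer cells of a type and less RNA per cell cannot be told apart.

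Esrrb itself, on mm10 chromosome 12 (86361117 to 86521628, plus strand), was read at 479, 518, 505 and 567 CPM in the DBDm6 libraries, against 472, 475, 553 and 540 CPM in the DBDm3 libraries. The ranges overlapped. The log2 fold change of DBDm6 over DBDm3 was 0.04 ± 0.07 (standard error), with an adjusted p of 0.813 in edgeR's quasi-likelihood test. The empty knockout averaged 277 CPM on TMM-scaled totals. The gene counts cannot tell transcripts of the Esrrb locus apart from those of the construct. The counts say nothing of receptor protein.

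Across all 15238 genes tested, 466 (3.06%) passed an adjusted p of 0.05: 249 were higher in DBDm6 (1.63%) and 217 were lower (1.42%). At an unadjusted p below 0.05 there were 3384. Off chromosome 6, 424 of 14502 genes passed (2.92%), 248 of them higher (1.71%) and 176 lower (1.21%). Most of these differences were modest, with a median absolute log2 fold change of 0.59 among the higher and 0.61 among the lower genes. At least a 2-fold difference was seen for 61 higher and 49 lower genes. Of the 176 lower genes, 25 belonged to the protocadherin cluster, where overlapping exons count the same reads for several genes. On chromosome 6, 42 of 736 genes passed (5.71%), of which 1 was higher (0.136%) and 41 were lower (5.57%).

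**Figure D1:**
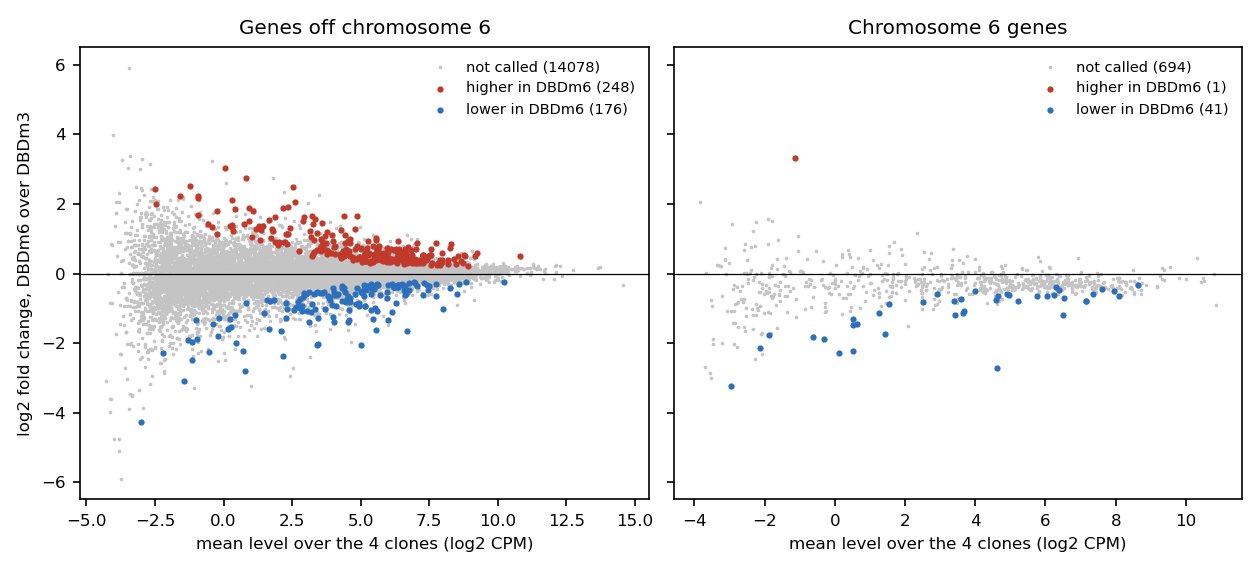
Log2 fold change of DBDm6 over DBDm3 (vertical axis) against the mean level of each gene over the 4 clones (horizontal axis, log2 CPM), for genes off chromosome 6 (left) and on it (right). Coloured points passed an adjusted p of 0.05 in edgeR, and on chromosome 6 the called genes lie below 0 except for 1.

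These counts rested on pooling the spread of all 14 clones. With the 4 clones alone, edgeR called 0 genes, with 1674 at an unadjusted p below 0.05 and a lowest adjusted p of 0.301. DESeq2 on the 14 clones called 1281 and limma-voom on the libraries 1119. Leaving out clone 10-24 left 34 calls off chromosome 6 and leaving out clone 10-26 left 15, while leaving out 9-6 gave 1922 and leaving out 9-8 gave 1206.

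Chromosome 6 was read apart because the DBDm3 clones did not share its level. Summed over its tested genes, chromosome 6 took 47020 and 46790 CPM in DBDm6 clones 10-24 and 10-26, against 66920 CPM in DBDm3 clone 9-6 and 45640 CPM in DBDm3 clone 9-8. Clone 9-6 stood above the other 3, which lay close together. The median gene of chromosome 6 was lower in DBDm6 than in clone 9-6 by a log2 difference of -0.50, and differed from clone 9-8 by -0.0047. Clone 9-6 lay above both DBDm6 clones for 608 of the 736 genes (82.6%, against 38.4% of genes off chromosome 6). Clone 9-8 did so for 296 (40.2%, against 39.6%). The offset from 9-6 ran along the whole chromosome: in 15 bins of 10 Mb the median lay between -0.60 and -0.35, while against 9-8 it lay between -0.20 and 0.14.

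Set against WT_mock, Esrrb wild-type ESCs carrying an empty construct, the median chromosome 6 gene stood at -0.92 in clone 10-24, -0.91 in 10-26, -0.41 in 9-6 and -0.91 in 9-8 on the log2 scale. Chromosomes 8 and 14 were also below WT_mock in all 4 clones. Chromosome 8 stood at -0.52 in 10-24 and -0.43 in 10-26, against -0.50 in 9-6 and -0.53 in 9-8. Its genes summed to 45350 CPM in 10-26, against 42500 CPM in 10-24, 42370 CPM in 9-6 and 42060 CPM in 9-8. Chromosome 14 was alike in the 4, at -0.51 and -0.51 in DBDm6 against -0.55 and -0.52 in DBDm3. On the other chromosomes, the Y aside, the largest median log2 fold change between the mutants was 0.062, on chromosome 13. Gene copy number was not analysed here.

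**Figure D2:**
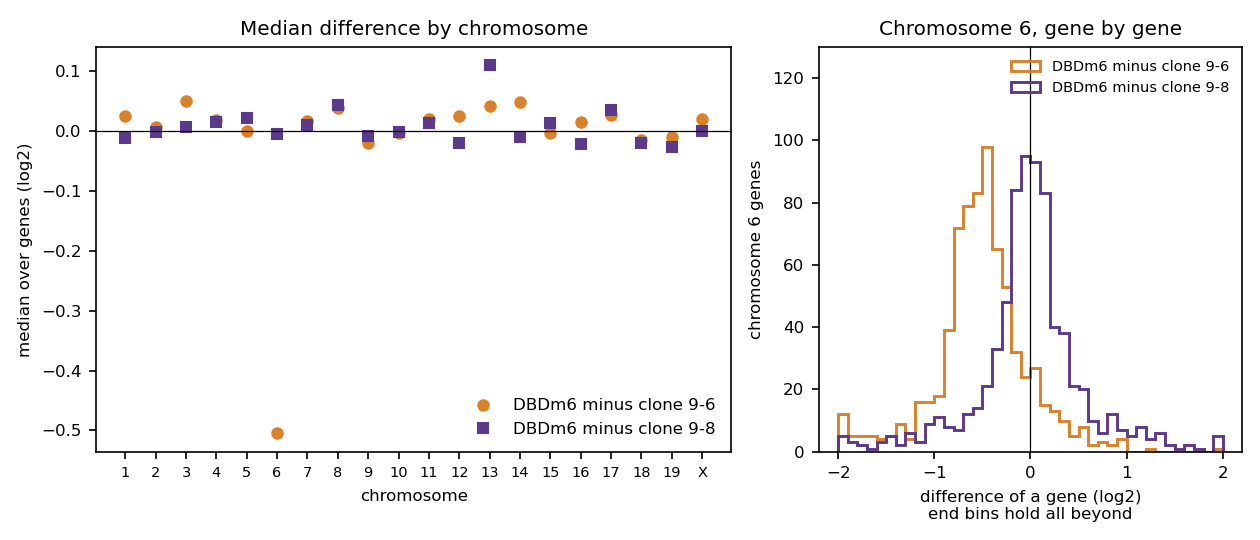
Left, median log2 difference of the DBDm6 clones' mean from each DBDm3 clone, for chromosomes 1 to 19 and X. Right, the same differences for each of the 736 chromosome 6 genes as a histogram. Chromosome 6 lies at -0.50 against clone 9-6, and every other plotted point lies between -0.03 and 0.11.

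Against each DBDm3 clone singly, the lone clone being assumed to vary like the others, the calls on chromosome 6 went mostly 1 way against 9-6 and both ways against 9-8. Against clone 9-6, 1206 of 14845 genes off chromosome 6 passed (8.12%), 707 higher (4.76%) and 499 lower (3.36%). On it, 360 of 752 genes passed (47.9%), 1 higher (0.133%) and 359 lower (47.7%). Against clone 9-8, 1922 of 14877 genes off chromosome 6 passed (12.9%), 1023 higher (6.88%) and 899 lower (6.04%). On it, 96 of 753 passed (12.7%), 52 higher (6.91%) and 44 lower (5.84%). Of the 248 genes higher off chromosome 6 with both clones, 202 were called against 9-6 alone, 225 against 9-8 alone and 181 against each. Of the 176 lower, the numbers were 134, 159 and 117. Of the 41 lower genes on chromosome 6, 39 were called against 9-6 alone and 35 against 9-8 alone. These comparisons share the DBDm6 clones and are not independent.

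Among the genes higher in DBDm6 off chromosome 6, Fabp3, the fatty acid binding protein of heart and muscle (chromosome 4, 130308778 to 130315463, plus strand), stood at 33.4 and 40.6 CPM in DBDm6 clones, against 10.9 and 12.4 CPM in DBDm3 clones. The groups were well apart and the summed clones of each lay close, though the 2 libraries of clone 10-26 stood at 26.2 and 55.5 CPM. Its log2 fold change was 1.67 ± 0.20 (adjusted p = 0.00619), and against 9-6 and 9-8 singly 1.76 and 1.58. It averaged 4.56 CPM in the empty knockout, 14.0 CPM with wild-type ERR beta and 16.3 CPM in WT_mock, so the DBDm6 clones lay above all of these.

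Ttc39c, a tetratricopeptide repeat gene (chromosome 18, 12643533 to 12737052, plus strand), stood at 12.7 and 12.1 CPM in DBDm6, against 2.39 and 3.62 CPM in DBDm3. Its fold change was 2.05 ± 0.22 (adjusted p = 0.00615). Next to it on the same strand, Lama3, a laminin chain of epithelial basement membranes (12334024 to 12583012), stood at 55.8 and 51.1 CPM in DBDm6, against 11.1 and 22.8 CPM in DBDm3 (1.66 ± 0.26, adjusted p = 0.00955). For both genes the DBDm3 clones differed from each other, in the same order, and both lay far below the DBDm6 clones. Lama3 averaged 2.29 CPM in the empty knockout and 2.58 CPM with wild-type ERR beta, below every clone of either mutant.

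Serpina3m, one of a multigene family of serine protease inhibitors, stood at 10.5 and 8.96 CPM in DBDm6, against 2.48 and 2.66 CPM in DBDm3 (1.92 ± 0.24, adjusted p = 0.00705). Xlr3a, of another multicopy family on the X chromosome, had the highest fold change among the called genes named off chromosome 6, 2.49 ± 0.48 (adjusted p = 0.0236), from 14.2 and 13.8 CPM in DBDm6, against 3.13 and 1.82 CPM in DBDm3. Xlr3a did not pass against 9-6 alone (adjusted p = 0.0662) or without the low-count filter. Reads that align to several copies were not counted, so the levels of both are uncertain. Vegfa, the vascular endothelial growth factor, stood at 17.9 and 22.8 CPM in DBDm6, against 9.69 and 5.10 CPM in DBDm3 (1.45 ± 0.32, adjusted p = 0.037). Vegfa did not pass against clone 9-6 alone (log2 fold change 1.07), whose level lay between the others. It was also not called with limma-voom or without the low-count filter. Library 1 of clone 10-24 stood at 12.5 CPM, close to library 2 of clone 9-6 at 12.4 CPM. Dmrt1, a transcription factor of the germ line and testis, stood at 16 and 16.1 CPM in DBDm6, against 4.46 and 7.42 CPM in DBDm3 (1.44 ± 0.23, adjusted p = 0.0104).

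The other genes named as higher had log2 fold changes of 1.37 to 1.88. They were Nsg2, a protein of neuronal vesicles, Ufsp2, a protease of the ubiquitin-like UFM1, Ism2, Ly6g6e, the G protein subunit Gng2, Med12l, a relative of a Mediator subunit, the ubiquitin ligase Dtx4, and Mef2b. Another gene on the strand of Mef2b covers 93.8% of its exons, so its reads cannot be assigned to it alone. Against single clones, Nsg2 did not pass against 9-6 (adjusted p = 0.088) nor Dtx4 against 9-8 (adjusted p = 0.052). Clones of the groups that do not overlap were a condition for naming, so that separation is no result here: of all genes tested off chromosome 6, 25.9% had both DBDm6 clones on top and 21.6% had both below.

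Among the genes lower in DBDm6 off chromosome 6, the smallest p belonged to Slc39a14, which encodes the ZIP14 transporter of zinc, iron and manganese (chromosome 14, 70303467 to 70351424, minus strand). It stood at 28.3 and 25.1 CPM in DBDm6, against 86.1 and 78.6 CPM in DBDm3. The clones of each group lay close and the groups far apart (-1.63 ± 0.14, adjusted p = 0.00178). The empty knockout averaged 125 CPM, wild-type ERR beta 86.3 CPM and WT_mock 77.8 CPM, so that DBDm6 stood below all of them.

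Dnmt3l, the catalytically inactive partner of the de novo DNA methyltransferases, stood at 32.5 and 48.8 CPM in DBDm6, against 95.4 and 111 CPM in DBDm3 (-1.34 ± 0.19, adjusted p = 0.00918). It averaged 346 CPM in the empty knockout, 202 CPM with wild-type ERR beta and 99.7 CPM in WT_mock. Both DBDm6 clones lay below every one of these. Utf1, a chromatin-associated factor of pluripotent cells, stood at 29.1 and 28.7 CPM in DBDm6, against 60.5 and 58.7 CPM in DBDm3 (-1.04 ± 0.12, adjusted p = 0.00619). Its neighbour Kndc1, which ends 2315 bases before it on chromosome 7, fell with it: 10.7 and 9.56 CPM in DBDm6, against 22.1 and 30.6 CPM in DBDm3 (-1.38 ± 0.18, adjusted p = 0.00734).

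Id3, an inhibitor of basic helix-loop-helix factors and a BMP target, had the lowest fold change among the called genes named off chromosome 6. It stood at 2.53 and 1.6 CPM in DBDm6, against 14.5 and 6.53 CPM in DBDm3 (-2.36 ± 0.49, adjusted p = 0.0319). The DBDm3 clones differed by more than 2-fold from each other, and against 9-8 alone Id3 did not pass (adjusted p = 0.124). It was also not called with limma-voom. The empty knockout averaged 46.6 CPM. Mcam, a cell adhesion molecule, stood at 57.7 and 63.6 CPM in DBDm6, against 116 and 265 CPM in DBDm3 (-1.65 ± 0.31, adjusted p = 0.0213). Plekhg1 stood at 15.1 and 20.4 CPM in DBDm6, against 28.4 and 118 CPM in DBDm3 (-2.04 ± 0.46, adjusted p = 0.042). In both, clone 9-8 was far above the other 3 and clone 9-6 was nearer to DBDm6.

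The other genes named as lower had log2 fold changes of -2.02 to -1.27. They were Cd80, a costimulatory ligand of T cells, the glucose transporter Slc5a1, the drug efflux pump Abcb1b, the collagen receptor integrin Itga1, the cyclic nucleotide phosphodiesterase Pde2a, the vesicle GTPase Rab27a, the cell surface proteoglycan Gpc4, and Ttc9 and Lrrc28. Rab27a stood at 7.75 and 6.15 CPM in DBDm6, against 17.7 and 16 CPM in DBDm3. Against single clones, Slc5a1 did not pass against 9-6 (adjusted p = 0.0563) nor Itga1 against 9-8 (adjusted p = 0.0527). Of the 27 lower calls on chromosome 18, 25 were genes of the protocadherin cluster, of which 39 were tested. Exons of the cluster overlap, so that a read in a shared exon was counted for several of the 25 genes. They share 41.7% to 99.1% of their exonic bases with another gene and had fold changes of -0.38 to -0.31, so they are not independent measurements.

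**Figure D3:**
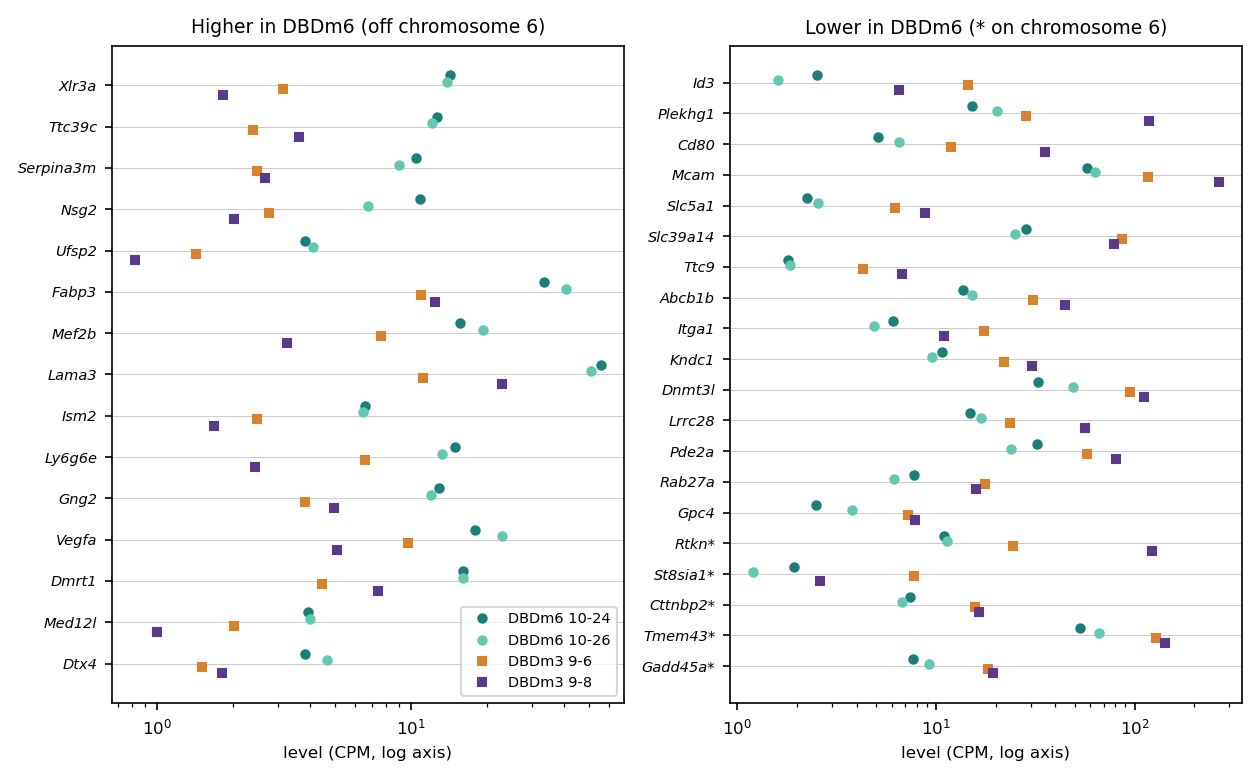
Level in each clone (CPM, log axis) of the genes named by fold change, with DBDm6 clones as circles and DBDm3 clones as squares. Circles and squares do not overlap because the choice of genes required it. The DBDm3 clones lie close for Slc39a14, Serpina3m and Tmem43 and far apart for Plekhg1, Mcam and Rtkn.

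On chromosome 6 the 5 genes named by rank were lower in DBDm6, again with clones that do not overlap as a condition. Of all tested chromosome 6 genes, 35.3% had both DBDm6 clones below and 5.03% both above. Tmem43, an inner nuclear membrane protein (91473751 to 91488458, plus strand), stood at 53.5 and 66.6 CPM in DBDm6, against 129 and 143 CPM in DBDm3 (-1.18 ± 0.11, adjusted p = 0.00213). Clone 9-8, whose chromosome 6 level matched DBDm6, had the higher value, and the gene still passed when chromosome 6 was normalised on its own genes (-0.95, adjusted p = 0.024). Rtkn stood at 11.0 and 11.3 CPM in DBDm6, against 24.5 and 122 CPM in DBDm3 (-2.72 ± 0.55, adjusted p = 0.0288). Clone 9-8 alone was very high. Rtkn, Cttnbp2, which binds cortactin, and the stress gene Gadd45a did not pass with chromosome 6 normalised apart, with adjusted p of 0.0737, 0.0719 and 0.0976. The ganglioside synthase St8sia1 did (-1.37, adjusted p = 0.0492). Normalised apart, chromosome 6 had 18 calls, 9 higher and 9 lower, and 10 of the original 42 were among them.

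Ccnd2, cyclin D2, also lies there and was low in the clones of both mutants. It stood at 0.428 and 0.501 CPM in DBDm6, against 1.78 and 2.80 CPM in DBDm3 (-2.29 ± 0.29, adjusted p = 0.00705). Normalised apart, its fold change was -2.07 (adjusted p = 0.0233). The empty knockout averaged 12.2 CPM, wild-type ERR beta 8.44 CPM and WT_mock 10.1 CPM, above every clone of either mutant. The single higher gene was Aass, which starts lysine breakdown, with 1.65 and 0.88 CPM in DBDm6, against 0.11 and 0.14 CPM in DBDm3 (3.31 ± 0.49, adjusted p = 0.00953). Nanog, also on chromosome 6, stood at 784 and 816 CPM in DBDm6, against 717 and 689 CPM in DBDm3. It was not called (0.19 ± 0.06, adjusted p = 0.117).

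The promoters of called genes were searched for the ERR core motif AAGGTCA and its longer form TNAAGGTCA, which contains it, on both strands. Windows of 250 bases before to 50 after the start were available for 11113 of the 15238 genes (RefSeq, GRCm38.p6, the mm10 assembly). Off chromosome 6 the core stood in a window of 6 of 180 higher genes (3.33%) and 2 of 119 lower genes (1.68%), against 439 of 10540 tested genes (4.17%), and in 4.72% of all windows. The longer form was found for 1 higher and 0 lower genes, against 102 tested genes (0.968%). Of the 43 named called genes with a window, 1 held the core, Rtkn. A match is a description and not a binding site, and a missing match says only that these letters are not in the window.

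Windows of 3 genes are shown, Rtkn for its match and Fabp3 and Tmem43 as genes called whichever clone was left out. Capitals mark the core motif. All are on the plus strand, 5′ to 3′: Rtkn chr6:83136834-83137133, Fabp3 chr4:130308488-130308787 and Tmem43 chr6:91473457-91473756.
Rtkn: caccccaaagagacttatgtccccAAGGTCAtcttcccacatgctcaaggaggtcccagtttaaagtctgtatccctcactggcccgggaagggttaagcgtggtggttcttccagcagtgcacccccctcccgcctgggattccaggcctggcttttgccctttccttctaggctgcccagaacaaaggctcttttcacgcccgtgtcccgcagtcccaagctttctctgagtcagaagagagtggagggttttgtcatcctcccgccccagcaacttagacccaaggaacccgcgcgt
Fabp3: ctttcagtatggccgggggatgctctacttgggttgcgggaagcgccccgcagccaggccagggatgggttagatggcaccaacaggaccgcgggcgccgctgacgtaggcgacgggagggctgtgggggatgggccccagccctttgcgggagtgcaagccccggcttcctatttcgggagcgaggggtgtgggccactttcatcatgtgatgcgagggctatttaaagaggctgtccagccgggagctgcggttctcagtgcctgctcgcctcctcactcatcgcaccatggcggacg
Tmem43: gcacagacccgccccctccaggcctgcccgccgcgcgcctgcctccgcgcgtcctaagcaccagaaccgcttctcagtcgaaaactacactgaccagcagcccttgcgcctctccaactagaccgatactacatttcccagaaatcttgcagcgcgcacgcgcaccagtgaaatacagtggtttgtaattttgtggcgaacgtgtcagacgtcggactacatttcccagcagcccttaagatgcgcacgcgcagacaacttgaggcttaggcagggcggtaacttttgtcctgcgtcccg
In Rtkn the core begins at position -226 from the RefSeq start of this window and reads in the direction of the gene. That start lies inside the gene as counted, which begins at 83135808.

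Gene lists of pathways and cell types held 410 different genes that were tested, and 20 of them passed, 9 higher and 11 lower, against 3.06% of all genes tested (1.63% higher and 1.42% lower). The median fold change of all tested genes was -0.00395. Among 18 genes of the ATF4 stress response and serine synthesis, 2 rose: Psph, which makes serine, stood at 48.9 and 48.4 CPM in DBDm6, against 31.4 and 27 CPM in DBDm3 (0.73 ± 0.10, adjusted p = 0.00844), and Phgdh, the first enzyme of that pathway, at 180 and 186 CPM in DBDm6, against 105 and 92.5 CPM in DBDm3 (0.89 ± 0.14, adjusted p = 0.0103). The list's median was 0.47, and 12 of 18 members had both DBDm6 clones on top, as did 24.9% of all genes tested. The median was 0.15 against 9-6 and 0.96 against 9-8. These list medians against a single clone, here and below, are of log2 CPM differences. They are not the same measure as the fitted fold change. Of the 18 members 2 lie on chromosome 6, and neither was called. Chac1, which degrades glutathione, stood at 24.7 and 27.4 CPM in DBDm6, against 13.4 CPM in 9-6 and 5.05 CPM in 9-8 (adjusted p = 0.0557).

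In glycolysis 3 of 20 genes rose, against 1.63% of all genes tested, and the 6 members on chromosome 6 were not called. The 3 were Aldoa, aldolase, with 2114 and 2164 CPM in DBDm6, against 1356 and 1639 CPM in DBDm3 (0.51 ± 0.09, adjusted p = 0.0164), the phosphofructokinase Pfkp (0.39, adjusted p = 0.0296) and the hexokinase Hk1 (0.70, adjusted p = 0.0351). Hk1 did not pass against 9-6 alone (adjusted p = 0.0633). In the TCA cycle list of 24, Idh2, mitochondrial isocitrate dehydrogenase, rose and Pcx, pyruvate carboxylase, fell. Of all genes tested 1.63% were called higher and 1.42% lower. Idh2 stood at 246 and 241 CPM in DBDm6, against 166 and 129 CPM in DBDm3, and Pcx at 28 and 26.4 CPM in DBDm6, against 37.9 and 42.0 CPM in DBDm3. Of 19 genes of fatty acid oxidation none was called, against 3.06% of all genes tested. A positive fold change was found for 18 of them, as for 7523 of all 15238 genes. The list's median was 0.24, close to equal against 9-6 (0.24) and 9-8 (0.22). Its largest value was that of Cpt1b, whose exons overlap a read-through gene over 94.8% of their bases. Cpt1a, which admits fatty acids to mitochondria, stood at 87.7 and 101 CPM in DBDm6, against 60.0 and 38.5 CPM in DBDm3 (0.93 ± 0.24, adjusted p = 0.0602).

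Of 16 feedback targets of FGF and MAP kinase signalling, the pathway that PD inhibits, 2 fell, against 1.42% of all genes tested. The median was -0.68, and it differed by clone: -0.75 against 9-6 and -0.28 against 9-8. Both DBDm6 clones lay below in 7 of the 16, as in 22.3% of all genes tested. Dusp4, a phosphatase of MAP kinases, stood at 10.2 and 10.4 CPM in DBDm6, against 23.9 and 24.7 CPM in DBDm3 (-1.24 ± 0.26, adjusted p = 0.0351), and did not pass against 9-6 alone (adjusted p = 0.0522). Dusp6, a phosphatase of ERK, stood at 25.2 and 19.6 CPM in DBDm6, against 53.8 and 32.2 CPM in DBDm3 (-0.94 ± 0.20, adjusted p = 0.0351). Dusp4 was alike in both DBDm3 clones, whereas Spry4 and Etv4 were higher in 9-6 than in 9-8 and the DBDm6 clones. Spry4, an inhibitor of receptor signalling, stood at 1.24 and 0.862 CPM in DBDm6, against 18.6 CPM in 9-6 and 0.706 CPM in 9-8. Etv4, a transcription factor of the ETS family, stood at 5.2 and 1.78 CPM in DBDm6, against 42.2 CPM in 9-6 and 2.73 CPM in 9-8. Neither was called, with adjusted p of 0.111 and 0.181. Spry4 averaged 71.9 CPM in the empty knockout, 48.3 CPM with wild-type ERR beta and 33.75 CPM in WT_mock. For Etv4 these means were 154.5, 163.6 and 126.3 CPM. Clone 9-6 thus also lay below all of these groups for both genes.

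Of 14 BMP and Id genes, Id3 and Smad5 fell, against 1.42% of all genes tested. The list's median fold change was -0.23. The median log2 CPM difference, another measure, was -0.0060 against 9-6 and -0.20 against 9-8. Smad5, a transducer of BMP signals, stood at 38.8 and 38.1 CPM in DBDm6, against 48.9 and 46.9 CPM in DBDm3 (-0.32 ± 0.08, adjusted p = 0.0478), and did not pass against 9-8 alone (adjusted p = 0.0555). The 17 p53 targets had no call, against 3.06% of all genes tested. Their median was -0.37, which again differed by clone: -0.022 against 9-6 and -0.69 against 9-8. Perp, a p53 target of cell junctions, stood at 3.38 and 5.73 CPM in DBDm6, against 7.89 CPM in 9-6 and 40.0 CPM in 9-8.

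Of all genes tested 3.06% passed, so lists as small as those of pluripotency genes would hold few calls or none. None of 20 naive factors was called, and their median was 0.072. Klf4 stood at 96.2 and 112 CPM in DBDm6, against 88.6 and 63.1 CPM in DBDm3 (adjusted p = 0.113). Of 15 core genes Utf1 alone was called, with a median of -0.091. Of 19 formative and primed genes none was called. Wnt8a came nearest, at 1.97 and 2.88 CPM in DBDm6, against 7.49 and 9.60 CPM in DBDm3 (adjusted p = 0.0509).

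Single members of other lists passed, against 1.63% of all genes tested called higher and 1.42% called lower. These are values of single genes and not a result about their lists. Of 16 germline genes, only the meiotic gene Sycp3 was called. It rose, at 27.5 and 36.1 CPM in DBDm6, against 13.4 and 16.1 CPM in DBDm3 (1.11 ± 0.19, adjusted p = 0.012). Of 23 imprinted genes tested, only the receptor gene Igf2r was called, with a rise of 0.39 (adjusted p = 0.0236). Of 20 primitive endoderm genes, 2 passed, against 3.06% of all genes tested, and both encode basement membrane proteins. Nid1, nidogen, rose to 120 and 133 CPM in DBDm6, against 87.9 and 65.7 CPM in DBDm3. Col4a1, a collagen IV chain, fell to 6.51 and 7.81 CPM in DBDm6, against 16.8 and 12.2 CPM in DBDm3. The adjusted p were 0.00985 and 0.0251. Of 18 simple epithelial and adhesion genes, only the laminin chain Lama5 was called, with a fold change of -0.42 (adjusted p = 0.048). That call was lost without Rn45s and with limma-voom on libraries without a block.

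The genes closest to the mutants' design were not called. With 3.06% of all genes tested called, lists this small would often hold none. None of 10 TFIIH subunits passed, and their median was 0.020. Mnat1, which assembles the TFIIH kinase, came nearest with 68.6 and 72.5 CPM in DBDm6, against 58.2 and 60.3 CPM in DBDm3 (0.25 ± 0.07, adjusted p = 0.0632). The kinase subunit Cdk7 stood at 114 and 107 CPM in DBDm6, against 107 and 108 CPM in DBDm3. None of 17 tested ERR receptors and cofactors passed either (median 0.035). The coactivator Ncoa3 stood at 205 and 236 CPM in DBDm6, against 197 and 202 CPM in DBDm3 (adjusted p = 0.303). The lists of Wnt, LIF and STAT3, cholesterol synthesis, mesoderm, neuroectoderm, trophoblast, 2-cell-like, feeder and muscle-type genes also had no call, with medians of -0.11, -0.045, 0.16, -0.10, 0.30, 0.22, 1.47, 0.15 and 0.59. The 2-cell-like list rests on 3 tested genes of at most 0.964 CPM. Of the muscle-type genes, 9 of 14 had both DBDm6 clones on top, against 24.9% of all genes tested, among them Des, desmin, with 9.08 and 12.3 CPM in DBDm6, against 4.65 and 6.26 CPM in DBDm3 (adjusted p = 0.131).

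**Figure D4:**
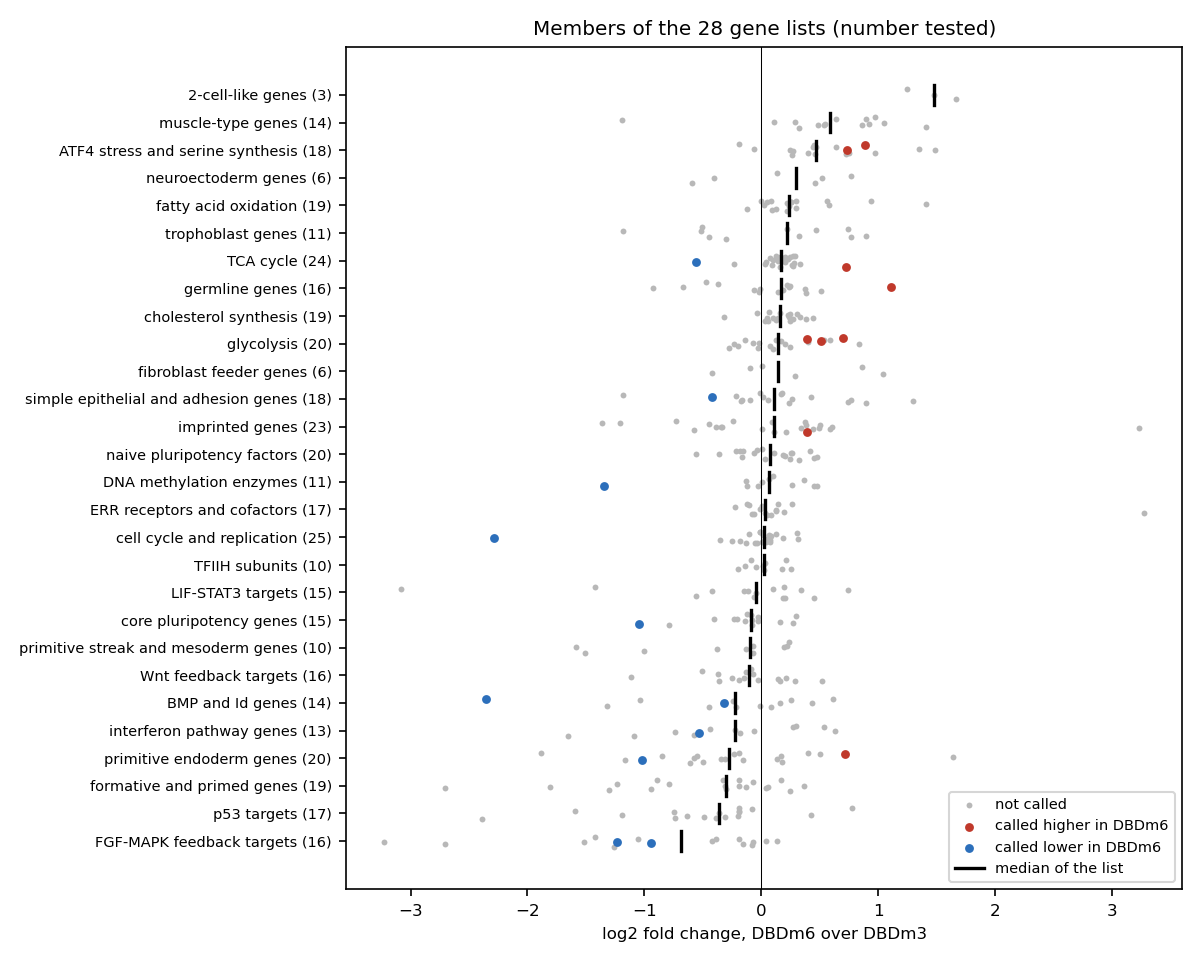
Log2 fold change of DBDm6 over DBDm3 for every tested member of the 28 gene lists, with a bar at each list's median. Red and blue points passed an adjusted p of 0.05. The FGF and MAP kinase targets have a median of -0.68 (-0.75 against clone 9-6 and -0.28 against 9-8). The ATF4 and serine genes have 0.47 (0.15 against 9-6 and 0.96 against 9-8). Values against a single clone are medians of log2 CPM differences and not of fitted fold changes.

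The DBDm3 clones also differed from each other off chromosome 6, with no test between single clones. The genes highest in 9-8 over 9-6 were Ano3, P2rx7, Olig2, Ttll6 and Perp. P2rx7, an ATP-gated channel, stood at 6.4 and 6.35 CPM in DBDm6, against 4.76 CPM in 9-6 and 31.5 CPM in 9-8. The genes highest in 9-6 over 9-8 were Spry4, Etv4, Ube2l6, Serpinf1 and the Y-linked Eif2s3y. For P2rx7, Spry4 and Etv4 the other DBDm3 clone was near the DBDm6 clones. Y-linked genes varied by clone and none was called: Uty stood at 47.1 and 56.8 CPM in DBDm6, against 53.8 CPM in 9-6 and 11.6 CPM in 9-8, whereas Zfy1 stood at 8.44 and 9.96 CPM in DBDm6, against 1.78 and 0.91 CPM in DBDm3 (adjusted p = 0.205).

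The called genes off chromosome 6 were placed beside 3 groups outside the comparison by asking whether a group's mean level was nearer to DBDm6 or to DBDm3 on a log2 scale. The empty knockout was nearer to DBDm6 for 23 of the 248 higher genes (9.27%) and 11 of the 176 lower genes (6.25%), against 35.2% of all genes tested off chromosome 6. Wild-type ERR beta was nearer to DBDm6 for 20.6% of the higher and 22.2% of the lower genes, against 44.2% of all. WT_mock was nearer for 46.0% and 36.4%, against 52.5%. For most called genes, the empty knockout thus lay on the DBDm3 side. This is a description of group means with no test.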

How the data were processed

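Read counts per gene were deposited by the authors as 1 table, made with featureCounts (version 2.0.1 per the file headers, 2.0.10 per the submitters' processing notes) from STAR 2.7.8a alignments to mm10. Per the file headers, exonic reads were counted on the reverse strand, once for each overlapping gene, without multi-mapping reads. All per-sample columns were used (0 left out). Counts were added over the 2 libraries of each clone. Genes were filtered with filterByExpr, scaled with TMM (0.972 to 1.05) and tested with edgeR 4.0.16 in R 4.3.3 (robust quasi-likelihood, 14 clones, 1 mean per group, 7 residual degrees of freedom), with Benjamini-Hochberg adjustment over all 15238 tested of 24421 genes. Library totals of 21891602 to 28300776 set the counting precision. Fold changes use a prior count of 0.125, and group levels were compared as log2 of CPM plus 0.1. Medians of chromosomes and lists against a single clone are of log2 CPM differences with a prior count of 2.

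On simulated counts of this comparison with 14972 genes tested, edgeR recovered 44.8%, 91.0% and 97.0% of genes changed by 0.5, 1 and 2 log2 units. It made 10 false calls, DESeq2 1.42.0 made 33 and limma-voom 3.58.1 made 98. The changed genes were drawn only from those averaging more than 2 CPM, so the recovery does not cover lower genes. Counts were drawn with edgeR's own estimates of spread, each gene independently. The simulated libraries of a clone were split from a single draw, so they differed by counting alone. In the data they differed more, with a chi-square per degree of freedom from 6.11 (clone 9-8) to 31.1 (clone 10-26). The false calls of limma-voom therefore cannot be carried over to the data.

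Named genes were the 15 highest and 15 lowest called fold changes off chromosome 6, the 5 highest and 5 lowest on it (none qualified as higher), each averaging log2 CPM 1 or more over the 4 clones, with clones that do not overlap, passing over predicted genes; up to 4 members of each list by p; and the 5 genes most unlike between the DBDm3 clones each way. Aass, Cdk7, Zfy1 and Uty were named after their values were seen. Some results meeting these rules are not reported here. Members and lists were chosen with earlier results of these data known. The alternatives were other scalings, no filter, DESeq2, limma-voom, the 4 clones alone, each clone left out and chromosome 6 fitted apart.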

Additional observations from a re-analysis of the deposited data

Results flagged for a closer look

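Among 298 sets of 4 libraries (a named gene in 1 group), 16 held 1 library far from the other 3, with the gap to the nearest divided by the whole range above Dixon's critical value. That critical value assumes 4 independent draws, whereas each set held 2 libraries from each of 2 clones. The number expected by chance is therefore not known. In DBDm6, library 1 of clone 10-24 was high for Serpina3m (0.865; 11.8 CPM against 8.86 to 9.25), and its library 2 was low for Cd80 (0.875; 3.68 against 6.36 to 6.75) and Cdx4 (0.846) and high for Aldoc (0.831). Library 2 of clone 10-26 was low for Kdr (0.852) and Mcm2 (0.941) and high for Krt18 (0.93) and Ttll6 (0.832), and its library 1 was low for Ddx4 (0.881) and high for Stat2 (0.851). In DBDm3, library 2 of clone 9-6 was low for Dnmt3l (0.861; 73.2 CPM against 109 to 115), and high for Dppa5a (0.88) and Idh2 (0.85; 200 CPM against 125 to 137). Library 1 of clone 9-6 was high for Eras (0.862) and Id1 (0.836), and library 1 of clone 9-8 was low for Piwil2 (0.877). Serpina3m, Cd80, Dnmt3l and Idh2 were called genes. For Serpina3m, Cd80 and Dnmt3l no library of one group crossed into the range of the other, whereas for Idh2 the DBDm6 libraries ran from 194 CPM and 1 DBDm3 library reached 200 CPM.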

How the results depend on the processing

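Of the 466, 424 and 42 calls on all genes, off and on chromosome 6, and the 20 calls among list members, counts stayed within 1.5 times with DESeq2's size factors, TMM without chromosomes 6, 8 and 14, without Rn45s, without the low-count filter and without genes sharing most exonic bases, the last chosen after seeing the data. That last setting left in most of the 25 protocadherin calls, as only 9 called genes off chromosome 6 shared at least 50% of their exonic bases. DESeq2's test gave 1281, 1174, 107 and 76. The 4 clones alone gave 0 for each, with 1674, 1583, 91 and 88 at an unadjusted p below 0.05. Limma-voom on libraries, with clone as a random effect, gave 1119, 998, 121 and 61. It made more false calls in simulation, but there the libraries of a clone differed by counting alone, unlike in the data. Leaving out 1 clone gave 22 to 2018, 15 to 1922, 2 to 360 and 1 to 109. Chromosome 6 fitted apart gave 18 on it. The causes were not tested.

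With the library number as a replicate block, limma-voom gave 1078, 965, 113 and 63. Deviations of same-numbered libraries correlated between clones 10-24, 10-26 and 9-6 (r = 0.814, 0.625 and 0.635 over genes) but not with clone 9-8 (-0.298, -0.157 and -0.0184). Not every pair was positive, so the numbers were not taken to pair all 4 clones.

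Of 53 named called genes, 5 (Ttc39c, Serpina3m, Fabp3, Slc39a14 and Tmem43) were called whichever clone was left out, all 53 lost the call with the 4 clones alone, and none changed sign under any setting run. Leaving out 10-24 kept 33 of the 424 calls off chromosome 6, 10-26 kept 13, 9-6 kept 384 and 9-8 kept 336. With 2 clones a group, genes at low CPM were the least precisely measured.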

Other observations

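Some called genes off chromosome 6 were neighbours. Genes with names beginning Pcdha, Pcdhb or Pcdhg were left out, and overlapping genes were not paired. Predicted genes of the protocadherin cluster under other names were not dropped. Of 401 called genes, 36 (8.98%) had a called gene next to them among tested genes, against 4.88% of the genes not called. There were 16 neighbouring pairs that moved the same way, 10 higher and 6 lower in DBDm6. On chromosome 7, Kndc1 and Utf1 were lower and lay 2315 bases apart. On chromosome 18, Lama3 and Ttc39c were higher and lay 60520 bases apart. On chromosome 17, Clic1, an intracellular chloride channel protein, and Ddah2 lay 315 bases apart, with log2 fold changes of 0.59 and 0.98. On chromosome 13, Serpinb6c and Serpinb6a, of a multigene family, lay 12209 bases apart, with 1.89 and 1.01. No test was made of these counts.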
